A study of Homo sapiens with 2 samples.

Results

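The genes described here are 10 transcripts that the RAS, RAF, MEK and ERK cascade induces and most of which act back on it: the phosphatase genes DUSP4, DUSP5 and DUSP6, the Sprouty and SPRED genes SPRY2, SPRY4 and SPRED1, the ETS factor genes ETV4 and ETV5, and PHLDA1 and FOSL1. They were chosen by symbol, each on the array's probe set annotated to that gene alone, and they are 10 of the 22465 genes that had a probe set of their own. Every one of them had exactly 1 such probe set. All 10 were above an expression floor of 3.21 log2 units, set at the 95th percentile over the mean signals of 350 olfactory receptor genes, as were 15697 genes in all. The lowest member value on either array, 5.92 for ETV5, lay well above that floor.

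The cells were MDA-MB-231, an established human cell line from a triple-negative breast tumour, grown in high-glucose DMEM with fetal bovine serum. The control cells carried the pLKO.1 vector, a lentiviral plasmid for short hairpin RNAs, under a title ending in shNC, so whether it was empty or held a control hairpin is not clear from the labels. The other cells carried pLKO.1-shSREBP, directed against SREBP1, a transcription factor that drives lipid synthesis genes. Both were stable derivatives, and the labels do not say whether either is a clone or how many hairpin sequences were used. Total RNA of each was read on 1 array, so no spread between replicates exists, no p-value was computed, and each difference is the knockdown-labelled value minus the control value, in log2 units.

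ERK signalling is held in check by its own products. Receptor tyrosine kinases load RAS with GTP, RAF and MEK pass the signal on, and active ERK then switches on genes that include its own phosphatases, inhibitors of receptor signalling and transcription factors. In cells with an oncogenic RAS allele, as MDA-MB-231 is known to carry, these transcripts are commonly used as a readout of how strongly the cascade is running. The arrays measure RNA, so neither the RAS genotype nor the phosphorylation of ERK was read here.

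The line's identity on the arrays was checked with marker genes. The mesenchymal markers VIM, CD44, AXL, CAV1 and ZEB1 were all above the floor, with a mean of 8.67 log2 units in the control and 8.73 on the other array. The hormone receptor genes ESR1 and PGR were under the floor on both arrays, and CDH1, which encodes E-cadherin, read 3.32 and 3.16. The epithelial adhesion gene EPCAM was well above the floor, at 5.14 on both arrays. The keratin gene KRT19 read 7.26 and 6.80, the lowest difference of the epithelial and luminal list. Of 9 measured markers of leukocytes, endothelium, fibroblasts and muscle, 6 were above the floor, with list means of 3.44 and 3.43 log2 units. PTPRC, the pan-leukocyte marker, PECAM1, an endothelial marker, and DCN, a fibroblast marker, were under the floor, PTPRC at 2.04 on both arrays. Those above it were COL1A1, the highest at 5.01 and 4.99, CD14 at 4.31 and 3.96, MYH11 at 4.14 and 4.22, DES at 3.61 and 3.87, CD3E at 3.53 and 3.66, and CDH5 at 3.39 and 3.43. The part of other cells in the differences that follow was not tested. SREBF1, the gene of the hairpin's target, read 5.13 in the control and 5.29 on the knockdown-labelled array, so its RNA was not lower there, and directions below refer to the array's label.

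The promoters of the feedback genes are shown for 3 members that read lower on the knockdown-labelled array and that transmit different kinds of feedback. Each is the 250 bases before the start of transcription, 5′ to 3′ on the gene's own strand, from RefSeq on GRCh38.p14. The PHLDA1 window is chr12:76031777-76032026 on the minus strand, the SPRY2 window, at the most upstream of its listed starts, is chr13:80341127-80341376 on the minus strand, and the DUSP6 window is chr12:89352502-89352751 on the minus strand. Capitals mark the letters CCGGAA on either strand. These are the GGAA core of the sites that ETS factors such as ETV4 and ETV5 bind, with a flank. GGAA without that flank was not searched or marked, and it occurs in the DUSP6 window too.
PHLDA1: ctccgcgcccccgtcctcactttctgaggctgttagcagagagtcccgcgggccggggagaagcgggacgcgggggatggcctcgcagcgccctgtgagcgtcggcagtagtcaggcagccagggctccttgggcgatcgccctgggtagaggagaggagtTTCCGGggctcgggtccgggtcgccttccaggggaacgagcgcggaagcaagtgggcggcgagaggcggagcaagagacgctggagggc
SPRY2: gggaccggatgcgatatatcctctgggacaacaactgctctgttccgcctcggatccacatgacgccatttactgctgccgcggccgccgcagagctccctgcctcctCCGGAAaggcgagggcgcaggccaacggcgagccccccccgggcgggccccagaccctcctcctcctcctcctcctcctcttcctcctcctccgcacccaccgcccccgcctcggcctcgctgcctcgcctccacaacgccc
DUSP6: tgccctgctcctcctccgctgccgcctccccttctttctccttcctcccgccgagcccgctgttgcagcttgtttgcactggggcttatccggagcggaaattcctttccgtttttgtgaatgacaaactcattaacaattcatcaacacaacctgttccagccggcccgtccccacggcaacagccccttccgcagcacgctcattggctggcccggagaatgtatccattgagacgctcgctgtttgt

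Windows from RefSeq's table were used for 5 members, the other ones being SPRED1 and SPRY4. A member was counted if any of its windows held the letters, and SPRY2 had 3 windows where the others had 1. CCGGAA occurred in 2 of the 5 members, at 89 bases before the start in PHLDA1 and at 142 in SPRY2. It occurred in 14.5% of all 35116 windows of the same length. Shares of all windows are per window and not per gene, so they are a rough reference for counts of members. CIC is the repressor that ERK removes from ETV4, ETV5 and other feedback genes. The form TGAATGAA of its octamer was in no window of the 5 members and in 1.40% of all windows. Other forms of the octamer were not searched, so their presence is not known from this search. The AP-1 site TGANTCA, the binding site of FOSL1 with JUN proteins, was also in none of the 5, against 6.57% of all windows. Neither the SREBP element TCACNCCAC, the E-box CACGTG nor the cyclic AMP element TGACGTCA occurred in the 5, and these were in 0.883%, 6.34% and 1.65% of all windows. Both strands were searched. The windows that hold CCGGAA belong to the pair of members with the lowest differences, 5 of the 10 having no window used here. Among the members with a window, only SPRY4 read higher. GC was 70.4% in the PHLDA1 and SPRY2 windows, 57.2% in DUSP6, 65.6% in SPRY4 and 78.4% in SPRED1. The median over all windows was 58.0%. These sentences describe letters in these windows and no binding, and a link to the differences was not tested.

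The 10 feedback genes did not move as a block. On the knockdown-labelled array 4 read higher and 6 read lower, where 52.2% of all genes above the floor read higher and 41.2% lower. The members kept their split when the arrays were rescaled, though centring, by 0.012 log2 units, was too small to change it. The split of all genes became even after centring on their median. It was 48.4% higher and 51.6% lower after a signal-dependent curve was subtracted. FOSL1 was highest, at 1.39-fold higher, and PHLDA1 was lowest, at 1.31-fold lower. None reached 1.5-fold in either direction, a size passed upward by 0.382% of all genes and downward by 0.752%. None therefore reached 2-fold, passed by 0.0191% and 0.115%. A difference of at least 0.32 log2 units was seen in 1 member upward, FOSL1, and in 1 downward, PHLDA1, against 3.78% and 4.29% of all genes. A signal from a bulk culture cannot tell fewer expressing cells from less RNA per cell.

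**Figure D1:**
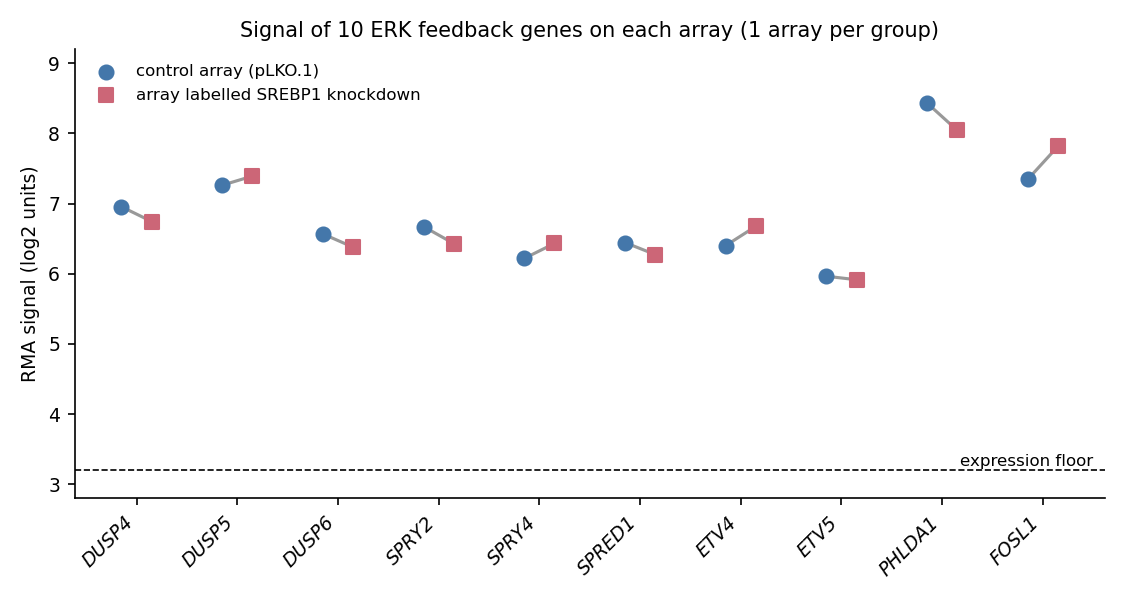
RMA signal in log2 units (vertical axis) of the 10 feedback genes on the control array (circles) and on the SREBP1 knockdown-labelled array (squares), 1 array per group, with a line joining the values of a gene and the expression floor of 3.21 dashed. DUSP5, SPRY4, ETV4 and FOSL1 slope upward and the other 6 downward; heights of different genes come from different probe sets and are not compared.

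The phosphatases that switch ERK off went both ways. DUSP6, a cytoplasmic phosphatase selective for ERK and a widely used readout of the pathway, read 6.57 log2 units in the control and 6.38 on the knockdown-labelled array, a difference of -0.19 or 1.14-fold lower (probe set TC12001796.hg.1). DUSP4, a nuclear phosphatase that also acts on the stress kinases, read 6.96 and 6.75, a difference of -0.21 or 1.16-fold lower (TC08001099.hg.1). DUSP5, the nuclear phosphatase selective for ERK, read 7.26 and 7.39, a difference of 0.13 or 1.09-fold higher (TC10000801.hg.1). The SD of the differences over the 1000 genes nearest in signal was 0.20 for DUSP6 and 0.21 for DUSP4 and DUSP5. DUSP5 stayed below it under each scaling, whereas DUSP4, at 0.210 against 0.211 as deposited, was above it after centring or the curve, and DUSP6 was above it after the curve. That SD describes spread over genes, and it stands beside the values because no spread over replicates exists.

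Among the 7 other phosphatases of MAP kinases, all above the floor, 3 read higher and 4 lower, and the list median was -0.072 log2 units. After centring on the median of all genes, DUSP2, at 0.0070 log2 units as deposited, turned sign and the split was 2 and 5. DUSP10, which acts mainly on p38 and JNK, had the lowest difference, from 6.25 to 5.92, or -0.33, and was the 1 gene of the list lower by at least 0.32. DUSP1, an immediate early phosphatase with a broad range of MAP kinase substrates, had the highest, from 6.10 to 6.41, or 0.31.

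The Sprouty and SPRED inhibitors, which act between the receptor and RAF, were likewise split. SPRY2, which interferes with the coupling of receptors to RAS, read 6.67 in the control and 6.43 on the other array, a difference of -0.24 or 1.18-fold lower (TC13000763.hg.1). Its relative SPRY4 read 6.22 and 6.43, a difference of 0.21 or 1.16-fold higher (TC05001880.hg.1). SPRED1, which brings the RAS GTPase activator neurofibromin to the membrane, read 6.45 and 6.27, a difference of -0.17 or 1.13-fold lower (TC15000259.hg.1). SPRY2 thus lay at percentile 7.63 of the differences of all genes above the floor, SPRED1 at percentile 13.3 and SPRY4 at percentile 89.8. Of the other 4 genes of these families, SPRY3 was under the floor at 2.19 on both arrays. SPRY1 had the lowest difference of the remaining 3, from 4.90 to 4.77, or -0.12, SPRED3 the highest at 0.013, and SPRED2 read 5.97 on both arrays. After subtraction of a curve of the difference on the signal, SPRY1 was at -0.13. SPRED2 and SPRED3, at or near 0 as deposited, were then at -0.014 and -0.00021, which reflects the amount subtracted.

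The pair of ETS factors lay on either side of 0. ETV4, a PEA3 family activator induced by ERK, read 6.40 in the control and 6.68 on the knockdown-labelled array, a difference of 0.28 or 1.21-fold higher (TC17001560.hg.1). ETV5, its close relative, read 5.97 and 5.92, a difference of -0.050 or 1.04-fold lower (TC03003333.hg.1), the smallest of the 10. ETV4 lay at percentile 94.2 of all genes and ETV5 at percentile 32.0. The third PEA3 factor, ETV1, read 5.48 and 4.96, a difference of -0.52 or 1.43-fold lower, at percentile 1.17. It had the lowest difference of the 75 other ERK pathway genes measured. Thus the 3 PEA3 genes held a high, a middle and a low place among all genes.

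The other ETS factors besides ETV1 were mostly slightly higher. Over the 7 measured, ETV1 included, 5 read higher and 2 lower. The median was 0.087 log2 units, and the highest was ETS1, which ERK phosphorylates, from 7.42 to 7.68, or 0.26. The gene of the repressor CIC, which ERK signalling inactivates and which holds down ETV4 and ETV5, read 5.97 and 5.96, a difference of -0.0043.

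FOSL1 and PHLDA1 held the extremes of the 10. FOSL1, which encodes the AP-1 subunit FRA1, a protein abundant in mesenchymal breast cancer lines and stabilised by ERK, read 7.35 in the control and 7.82 on the knockdown-labelled array, a difference of 0.47 (TC11001948.hg.1). It lay at percentile 99.1 of all genes above the floor, and 2.43% of those genes had a difference at least as large in either direction. PHLDA1, a pleckstrin homology domain protein induced by growth factors, read 8.43 and 8.04, a difference of -0.39 (TC12001751.hg.1), at percentile 2.66, with 4.80% of genes at least as far from 0. Both differences were larger than the SD of 0.20 over genes of the same signal.

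FOSL1 was the 1 gene of the 7 AP-1 subunits listed that was above the floor and read higher. Of the 5 other AP-1 subunits above the floor, none read higher, 4 read lower and FOSB read 4.05 on both arrays, with a median of -0.17 log2 units. FOSL2, which encodes FRA2, had the lowest difference, from 7.56 to 7.28, or -0.28. FOS was under the floor, at 2.99 and 3.18. The 4 stayed below 0 after either kind of scaling. FOSB, equal as deposited, was then at -0.012 or -0.015, which is only the amount subtracted. The relatives of PHLDA1 went one each way, PHLDA2 from 7.83 to 7.92, or 0.090, and PHLDA3, a p53 target, from 6.03 to 5.86, or -0.17.

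**Figure D2:**
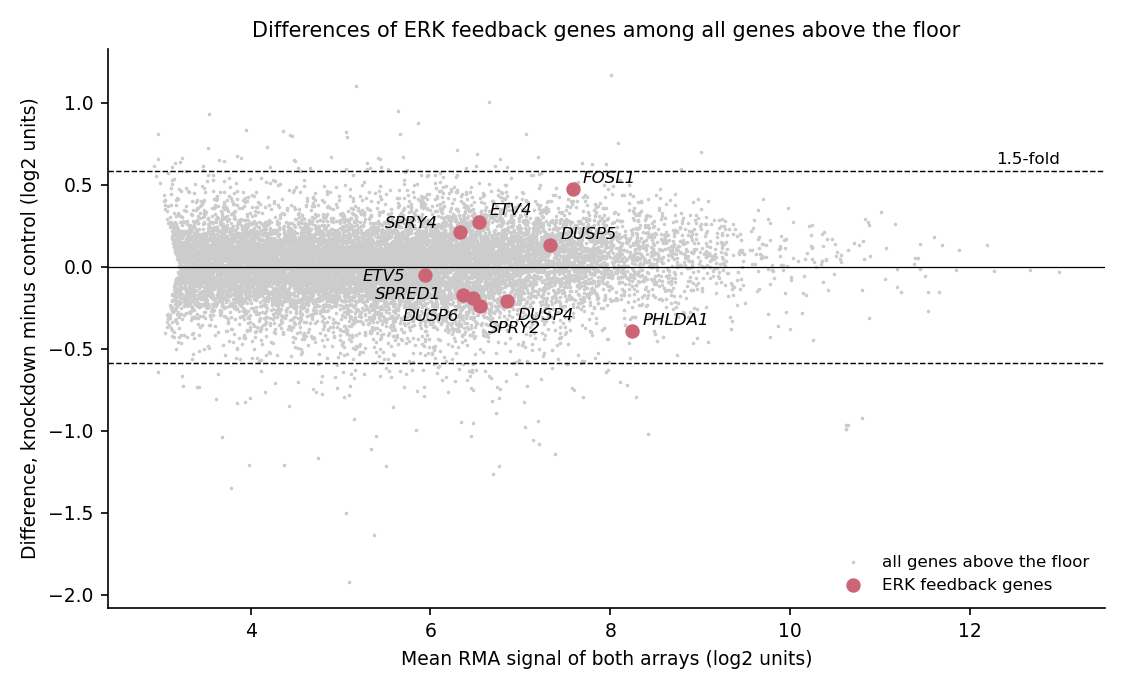
Difference between the arrays (vertical axis, knockdown minus control, log2 units) against the mean signal of both arrays (horizontal axis, log2 units) for the 10 feedback genes (large points) and all 15697 genes above the floor (small points), with 1.5-fold dashed. FOSL1 and PHLDA1 lie toward the upper and lower edges of the cloud and inside the 1.5-fold lines, and ETV5 lies near 0.

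The differences of the 10 lay on both sides of 0. Their median difference was -0.11 log2 units and their mean -0.016, beside a median of 0.012 and a mean of 0.010 over all genes above the floor. The SD of their differences was 0.27, beside 0.19 over all genes and 0.21 over the 4839 genes with a mean signal in the members' range of 5.94 to 8.24. The size of the difference, regardless of sign, was above the median size of all genes, 0.10, in 9 of 10 members, ETV5 being the exception. It was also above the median size in the members' signal range, 0.12, in 9. It passed the SD of genes of the same signal in 5 members, FOSL1, PHLDA1, ETV4, SPRY2 and SPRY4. The first 4 also passed it after either scaling, whereas SPRY4, at 0.214 against 0.212, did not. The share of all genes that passed the SD at their own signal was not computed, so the count of 5 has no reference.

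Scaling of the arrays left the order of the extremes and each sign in place. Centring subtracted the same 0.012 log2 units from every gene, less than the size of any member difference. It could therefore change neither, and only the curve could have. After the median difference of all genes was subtracted, FOSL1 was at 0.46 and PHLDA1 at -0.40, and after the curve on the signal was subtracted they were at 0.42 and -0.45. ETV5, the member nearest 0, ranged from -0.063 to -0.050 and DUSP5 from 0.085 to 0.13 over the deposited values and both scalings.

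**Figure D3:**
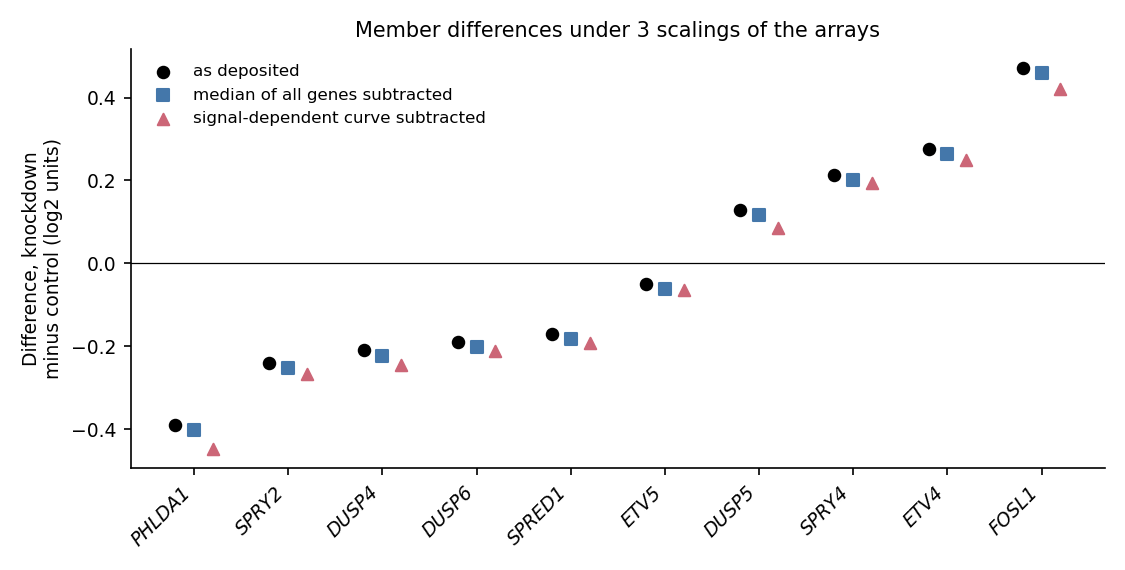
Difference of each feedback gene (vertical axis, knockdown minus control, log2 units), ordered from lowest to highest, from the deposited values (circles), after centring on the median of all genes (squares) and with a signal-dependent curve subtracted (triangles). In each scaling 6 genes are below 0 and 4 above it, from PHLDA1 to FOSL1.

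Other transcripts that ERK induces also read both higher and lower. Of 20 listed, 16 were above the floor, 8 higher and 8 lower. Their median of 0.022 log2 units turned to -0.0056 after the curve was subtracted. No gene reached 1.5-fold, which 0.382% of all genes passed upward and 0.752% downward. PLAUR, the urokinase receptor gene, had the highest difference, from 7.84 to 8.37, or 1.44-fold higher. CCND1, which encodes cyclin D1, and MMP1, an interstitial collagenase, were the other genes of the list higher by at least 0.32, at 0.40 and 0.39 log2 units, and are named after their values were seen. TRIB2, a pseudokinase gene, was lowest, from 6.84 to 6.43, or 1.33-fold lower, and was the 1 gene of the list lower by at least 0.32 log2 units.

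Upstream of the feedback genes, the cascade itself differed little. Of 10 RAS, RAF, MEK and ERK genes listed, 5 were measured, and their differences ran from -0.059 for MAPK3, which encodes ERK1, to 0.064 for ARAF. Of these 3 were higher, 1 was lower and HRAS read 6.85 on both arrays. The median was 0.0047, and -0.0075 or -0.034 with the median or the curve subtracted, when 2 were higher and 3 lower. The other 5 genes of this list were not analysed here. Receptors had 3 of 6 higher and 2 lower with a median of 0.085. EGFR, the epidermal growth factor receptor, was highest, from 7.52 to 7.95, or 1.34-fold higher, and PDGFRB was lowest, from 4.50 to 4.19, or -0.31. FGFR1 read 6.36 on both arrays. Adaptors, scaffolds and exchange factors had 3 of 9 higher and 6 lower, or 2 and 7 after the curve was subtracted. The scaffold gene IQGAP1 was lowest at -0.38 and the adaptor gene SHC1 highest at 0.19. SOS2, a RAS exchange factor named after its value was seen, was the other gene lower by at least 0.32 log2 units, at -0.37.

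Negative regulators outside the feedback families had a median of -0.19 log2 units, the lowest of the lists except with the floor raised, when the other AP-1 subunits had -0.20, and the 10 had -0.11. Of 6 measured, 5 read lower and 1 higher, beside 41.2% and 52.2% of all genes above the floor. None reached 1.5-fold, which 0.382% of all genes passed upward and 0.752% downward. ERRFI1, which encodes MIG6, a feedback inhibitor of EGFR, was lowest, from 8.80 to 8.37, or 1.35-fold lower. CBL, a ubiquitin ligase for receptors and a partner of SPRY2, was highest, from 7.77 to 7.87, or 0.10. NF1, the gene of SPRED1's partner neurofibromin, read 5.54 and 5.38, a difference of -0.16, beside -0.17 for SPRED1. Kinases downstream of ERK and the CIC complex had 2 of 9 higher and 7 lower, with a median of -0.11, from RPS6KA3 at -0.20 to RPS6KA4 at 0.31.

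Over all 75 measured pathway genes outside the 10, 30 read higher, 41 lower and 4 equal, with a median of -0.015 and an SD of 0.21 log2 units. The split was 28 higher and 47 lower after centring and 27 and 48 after the curve was subtracted. None reached 1.5-fold, 4 were higher and 6 lower by at least 0.32 log2 units, beside 1 and 1 of the 10. Centring made the count lower by at least 0.32 log2 units 7 and the curve 8. Exact equality on both arrays, seen in 4 of these genes, occurred in 6.62% of all genes above the floor and in no member. The lists hold unlike numbers of genes and were chosen with earlier results of these data known, so their counts describe these arrays only.

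**Figure D4:**
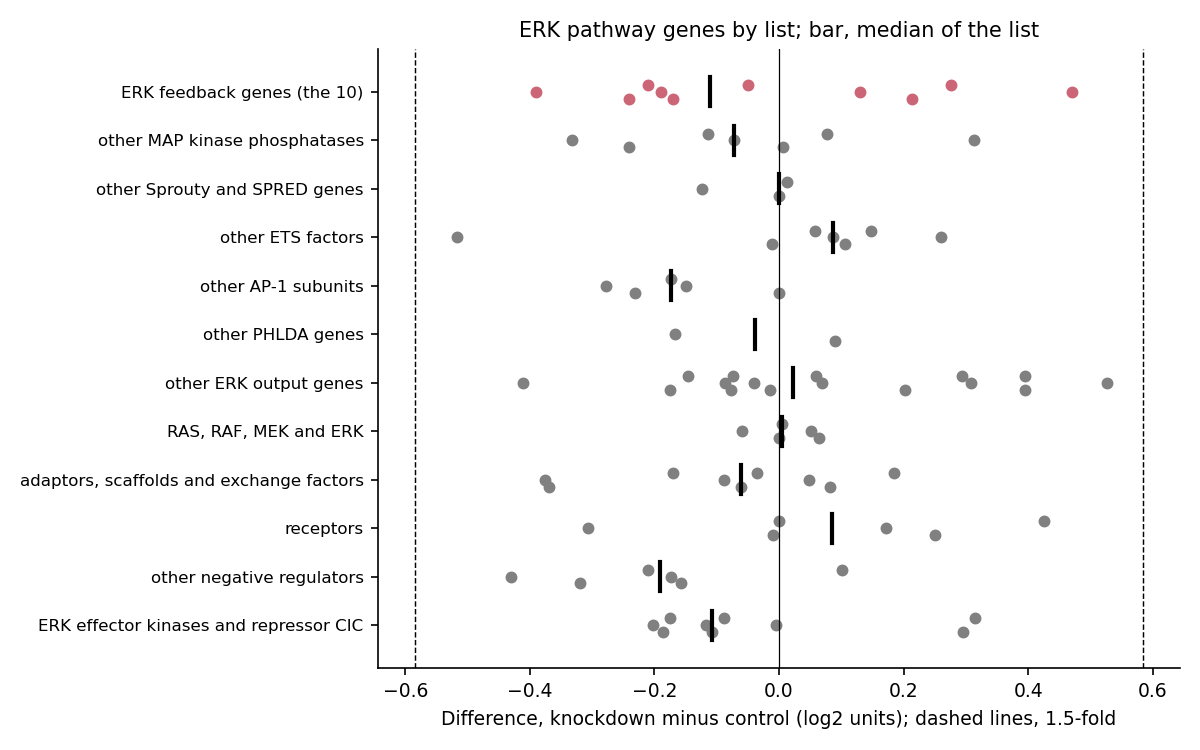
Difference between the arrays (horizontal axis, knockdown minus control, log2 units) of each measured gene (points) in the 10 feedback genes and in 11 lists of other ERK pathway genes (rows), with bars at list medians and 1.5-fold dashed. No point lies beyond 1.5-fold, which 0.382% of all genes passed upward and 0.752% downward. The SD is least in the 5 measured cascade genes, at 0.049, and largest in the feedback genes, at 0.27. Output genes, receptors and other ETS factors each have 0.25.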

How the data were processed

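The authors deposited RMA values on the log2 scale for each probe set, and the submitters' processing notes name RMA and Affymetrix Expression Console. Versions, genome build and annotation release: not given in the sources used here. RMA corrects background, normalizes between arrays and summarises probes, so values are relative signals. Biotinylated cDNA came from 250 ng of total RNA, per the labels' protocols. Arrays have no read depth, and their number, 1 per group, limits the precision.

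Of 70523 probe sets, 23781 were annotated to 1 gene. Symbols were updated through RefSeq (GRCh38.p14), and the probe set with the highest mean stood for a gene. Genes whose higher value passed 3.21 were kept. Besides the members there were 11 lists of ERK pathway genes. The text names all members, SREBF1, markers and the highest and lowest of each list. Other list genes it names were chosen after their values were seen. Members and lists were chosen with earlier results of these data known. Alternatives subtracted the median or a lowess curve (fraction 0.3), averaged probe sets, dropped or raised the floor by 1, or changed the threshold or summary. The code was tested on simulated data. Software was Python 3.11.15 with statsmodels 0.14.6, pandas 2.3.3, numpy 2.4.6 and matplotlib 3.10.9.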

Additional observations from a re-analysis of the deposited data

How the results depend on the processing

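Averaging probe sets and changing the floor could not alter a member's value, since each has 1 probe set and lies above the raised floor. The 20 member differences after centring or the curve all kept their sign, but the 10 after centring could not have turned. Centring subtracted 0.012 log2 units, less than the size of any member difference. The median of the 10 members ran from -0.13 to -0.11, and their mean in its place was -0.016. No member reached 1.5-fold under these alternatives or 2-fold at the higher threshold. At the lower threshold of 0.32 log2 units there was 1 member higher and 1 lower, where the threshold itself sets the change. Alternatives altered 39 list medians, of which 36 did not turn sign, where a move from or to 0 was counted as no turn. The median of the other Sprouty and SPRED genes moved from 0 to values between -0.062 and -0.012. With no floor, that of the other ERK output genes moved from 0.022 to 0. The median of the RAS, RAF, MEK and ERK list was -0.0075 after centring on the median of all genes and -0.034 after the curve was subtracted, and that of the other ERK output genes was -0.0056 with the curve subtracted. No paired analysis was possible because each group has 1 array, and for the same reason no replicate could be left out. Values that moved by less than 0.17 log2 units, the SD of the differences of the olfactory receptor genes, were taken as unmoved. That width exceeds the size of the members' median and of the differences of DUSP5, at 0.13, and ETV5, at -0.050. For values this small, being taken as unmoved does not show stability.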
